A study of Caenorhabditis elegans with 12 samples.

Results

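The polarity genes of the *C. elegans* zygote were examined in arrays of *lin-54* mutants and wild-type animals. The 8 genes were *par-1* to *par-6*, *pkc-3* and *cdc-42*, chosen by gene symbol, and all of their probe sets were kept: 19 of the 21541 probe sets on the array, for 8 of 17675 genes. LIN-54 is the subunit that carries the DNA-binding tesmin domains of the DRM complex, an Rb and E2F complex that binds promoters and can repress or activate transcription. The embryo groups were *lin-54(n2990)*, a strain with a missense allele that lowers LIN-54 function in part, and wild-type N2, both grown at 25°C before embryos were taken from young adults. The germline groups were *lin-54(n3423)*, a deletion null, and wild-type N2, both grown at 20°C, with gonads cut out 24 hours after the L4 stage to hold the mitotic tip through late pachytene. Each group had 3 biological replicates with 1 Affymetrix *C. elegans* Genome array each, 12 arrays in all. The null animals are sterile and the strain was kept over the balancer *nT1[qIS51]*, which is why the embryos carry the weaker allele. Allele, growth temperature, RNA amplification (germlines only) and labelling kit all differed along with tissue, so their parts in any difference between tissues cannot be told apart.

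The PAR proteins set up the front and back of the fertilized egg. PAR-3, PAR-6 and the atypical protein kinase PKC-3 occupy the anterior cortex together with the small GTPase CDC-42, while the RING protein PAR-2 and the kinase PAR-1 occupy the posterior cortex, and each side keeps the other off by phosphorylation or by blocking its recruitment. PAR-4, the worm LKB1 kinase, and PAR-5, a 14-3-3 protein, act on both sides. The proteins for the first division come from mRNA that the germline makes and loads into oocytes, and the same proteins later polarize epithelia. Whether loss of LIN-54 function alters the mRNA of these genes in embryos or in the germline is the question the arrays bear on here.

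All values are log2 signals, so a difference of 1 is a doubling, and each change is given as mutant minus wild-type with the standard error (SE) of limma's fit. Signals of different probe sets were not ranked against each other, because probes differ in how brightly they report, and the tables of the 2 tissues were normalized separately, so levels were not tested across tissues. The call followed the thresholds of the study's methods, an unadjusted p no higher than 0.01 together with a change of 1.5-fold or more. With 3 arrays against 3 the smallest p of the two-sided exact permutation test is 0.1. In bulk RNA, fewer cells of a type and less RNA per cell cannot be told apart.

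The *lin-54* probe set itself was present on 0 of 3 *lin-54(n3423)* germline arrays and on 3 of 3 wild-type ones, and its signal fell by 2.17 (SE 0.43, called, adjusted p = 1.00 in limma's fit) in the null germlines. In *lin-54(n2990)* embryos, which keep the transcript, it differed by 0.42 (SE 0.11) and was not called. Some arrays stood apart from the rest of their group. Both germline arrays numbered 1 correlated at 0.93 with replicates 2 and 3 of their own genotype, while replicates 2 and 3 correlated at 0.98 to 0.99. The *lin-54(n2990)* embryo array numbered 2 correlated at 0.93 to 0.94 with the wild-type embryo arrays, and *lin-54(n2990)* array 3 at 0.99. Mean signals of germ line markers in embryos were 9.74, 10.17 and 9.20 on the *lin-54(n2990)* arrays and 8.52, 9.11 and 8.68 on the wild-type arrays. Late embryo muscle, gut and neuron markers ran the other way, at 8.28, 7.67 and 8.60 on the *lin-54(n2990)* arrays and 8.99, 8.79 and 9.03 on the wild-type arrays.

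Of the 8 polarity genes, 0 were called changed in *lin-54(n2990)* embryos, where 5.52% of all genes were called. In *lin-54(n3423)* germlines 0 of 8 were called, where 0.504% of all genes were called (89 of 17675). At the same thresholds the study reports far more changed genes in germlines, and about as many in embryos as were called here. The germline share is thus that of the fit used here and not the study's rate. The cause of this gap was not tested. At an unadjusted p of at most 0.05, without a fold threshold, 3 of the 19 probe sets passed in embryos (25.4% of all probe sets) and 0 of 19 in germlines (2.5% of all probe sets). After Benjamini-Hochberg adjustment of limma's p over all probe sets, the lowest adjusted p among the 19 was 0.0784 in embryos and 1.00 in germlines. The changes of the 19 probe sets ran from -0.67 to 0.41 in embryos, with a median of 0.03 beside 0.0038 for all probe sets. In germlines they ran from -0.46 to 0.23, with a median of -0.02 beside 0.02 for all probe sets. In embryos the mutant arrays lay wholly above the wild-type arrays for 1 of the 19 probe sets and wholly below for 3, and the groups overlapped for the rest, whereas 32.8% of all probe sets did not overlap. In germlines the groups overlapped for all 19, and 7.17% of all probe sets did not. SEs ran from 0.08 to 0.28 in embryos and from 0.12 to 0.57 in germlines, and with replicate number as a block from 0.08 to 0.24 in both tissues. With that block, 7 of 19 probe sets in embryos and 1 of 19 in germlines had an unadjusted p of at most 0.05 (limma). Their lowest adjusted p was 0.0655 in embryos and 0.510 in germlines. The share of all probe sets passing with the block is not given here.

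**Figure D1:**
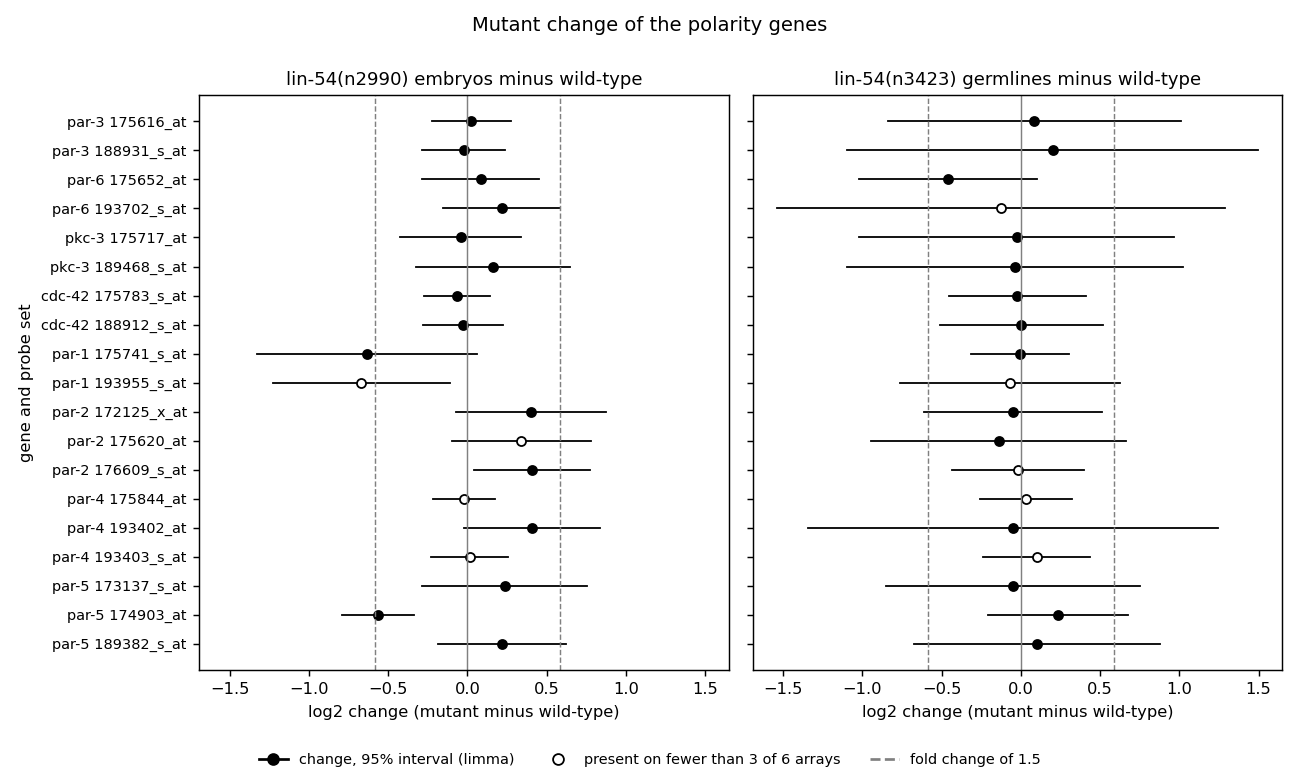
Change of each polarity probe set, mutant minus wild-type, on the log2 axis, in embryos and in germlines. Points are limma estimates, filled where the probe set was present on at least 3 of 6 arrays and open where not, and lines are 95% confidence intervals. Embryo intervals exclude 0 for *par-1* 193955_s_at, *par-2* 176609_s_at and *par-5* 174903_at, and all 19 germline intervals include 0.

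On the anterior genes the *lin-54(n2990)* and wild-type embryo arrays overlapped on all 8 probe sets, with changes from -0.06 to 0.22. *par-3* encodes the PDZ scaffold that brings PAR-6 and PKC-3 to the cortex. Its probe set 175616_at read 9.57, 9.87 and 9.79 in *lin-54(n2990)* embryos and 9.75, 9.65 and 9.75 in wild-type embryos, a change of 0.03 (SE 0.10). The second *par-3* probe set, 188931_s_at, read 10.62, 10.66 and 10.33 in the mutant and 10.60, 10.51 and 10.57 in wild-type (-0.02, SE 0.11). The mutant and wild-type arrays were interleaved on both. *par-6* encodes the adaptor that binds PKC-3 and CDC-42, and its 175652_at signal was 8.52, 8.93 and 8.66 in *lin-54(n2990)* embryos, against 8.73, 8.75 and 8.38 in wild-type embryos (0.08, SE 0.15, 95% confidence interval -0.28 to 0.45). On 193702_s_at the change was 0.22 (SE 0.15, 95% confidence interval -0.15 to 0.59). *pkc-3*, the kinase that keeps PAR-1 and PAR-2 off the anterior cortex, read 10.13, 10.63 and 10.35 in *lin-54(n2990)* embryos and 10.33, 10.61 and 10.29 in wild-type embryos on 175717_at (-0.04, SE 0.16). Its other probe set, 189468_s_at, differed by 0.16 (SE 0.20, 95% confidence interval -0.32 to 0.65). On both *pkc-3* probe sets replicate 2 was the highest array of each genotype. *cdc-42*, the GTPase that anchors the PAR-6 and PKC-3 pair, read 10.58, 10.72 and 10.74 in *lin-54(n2990)* embryos and 10.84, 10.73 and 10.67 in wild-type embryos on 175783_s_at (-0.06, SE 0.09, 95% confidence interval -0.27 to 0.14). The change on 188912_s_at was -0.03 (SE 0.10, 95% confidence interval -0.28 to 0.22). The interval of 175783_s_at was the narrowest of the 8 anterior probe sets.

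**Figure D2:**
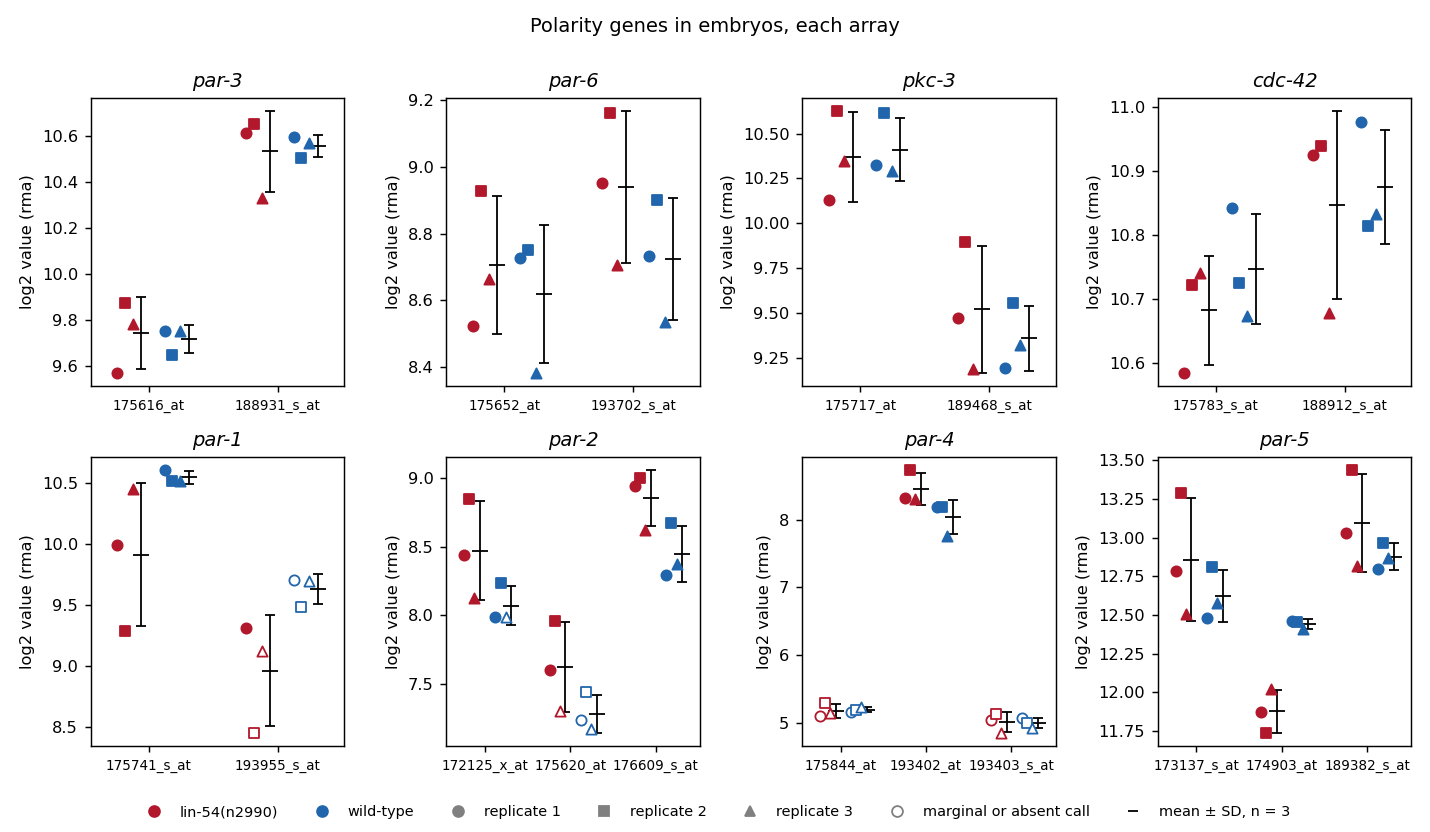
Log2 signal of the 19 polarity probe sets on each embryo array, 1 panel per gene, with *lin-54(n2990)* left of wild-type on each probe set. Marker shapes are replicate numbers, open markers are marginal or absent calls, and bars are mean ± SD (n = 3). Groups do not overlap on both *par-1* probe sets and on *par-5* 174903_at, where the mutant lies below, and on *par-4* 193402_at, where it lies above.

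The posterior genes leaned in opposite directions in mutant embryos, and none passed the call. *par-1* encodes the posterior kinase that acts on the cytoplasmic MEX-5 and MEX-6 proteins. Its 175741_s_at signal was 9.99, 9.29 and 10.46 in *lin-54(n2990)* embryos and 10.61, 10.52 and 10.52 in wild-type embryos, present on all 6 arrays. All 3 mutant arrays lay below all 3 wild-type arrays, array 2 by far the most and array 3 only just, while the wild-type arrays lay close together. The change was -0.63 (SE 0.28, 95% confidence interval -1.33 to 0.06), with an adjusted p of 0.225 (limma). Without mutant array 2 it was -0.32 (SE 0.15), and without mutant array 3 it was -0.90 (SE 0.21, adjusted p = 0.0552 in limma's fit), which passed the call. The other *par-1* probe set, 193955_s_at, read 9.31, 8.45 and 9.12 in *lin-54(n2990)* embryos and 9.71, 9.49 and 9.70 in wild-type embryos, again with no overlap. It was present on 1 of 3 mutant arrays and 0 of 3 wild-type arrays, so its signal stands near the detection limit. The change was -0.67 (SE 0.23, 95% confidence interval -1.23 to -0.11), with an adjusted p of 0.159. Fitted with replicate number as a block, the SE was 0.15 and the unadjusted p 0.00943 (adjusted 0.0838, limma), which passed the call.

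*par-2* encodes the RING protein that holds the posterior cortex free of PKC-3. On 176609_s_at it read 8.94, 9.001 and 8.62 in *lin-54(n2990)* embryos and 8.29, 8.68 and 8.37 in wild-type embryos. The mutant arrays were the higher ones but mutant array 3 lay below wild-type array 2, so that the groups overlapped. The change was 0.41 (SE 0.15, 95% confidence interval 0.04 to 0.77), with an unadjusted p of 0.0339 and an adjusted p of 0.171 (limma). The 172125_x_at signal was 8.44, 8.85 and 8.13 in *lin-54(n2990)* embryos and 7.99, 8.24 and 7.99 in wild-type embryos (0.40, SE 0.19, 95% confidence interval -0.07 to 0.88). On 175620_at the change was 0.34 (SE 0.18, 95% confidence interval -0.10 to 0.78). The 3 probe sets thus gave changes within 0.07 of each other, and on each of them mutant array 2 was the highest of the 6 and mutant array 3 the lowest of the mutant arrays. Without mutant array 2 the 3 changes were 0.33, 0.21 and 0.17 for 176609_s_at, 172125_x_at and 175620_at.

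*par-4* and *par-5* are needed on both sides of the embryo. Of the 3 *par-4* probe sets, 175844_at and 193403_s_at were absent on all 12 arrays of both tissues, and the embryo signals of these probe sets lay between 4.85 and 5.28. The detected one, 193402_at, read 8.32, 8.73 and 8.30 in *lin-54(n2990)* embryos and 8.19, 8.19 and 7.75 in wild-type embryos. The mutant arrays lay above every wild-type array, array 2 most clearly. The change was 0.41 (SE 0.18, 95% confidence interval -0.02 to 0.84), with an adjusted p of 0.212 (limma).

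The 3 probe sets of *par-5* did not give 1 answer. On 174903_at the signal was 11.87, 11.74 and 12.02 in *lin-54(n2990)* embryos and 12.46, 12.46 and 12.41 in wild-type embryos. Every mutant array lay below every wild-type array, and the wild-type arrays lay close together (SD 0.03, n = 3). The change was -0.56 (SE 0.09, 95% confidence interval -0.79 to -0.34), or 0.676-fold, with an unadjusted p of 0.00084 and an adjusted p of 0.0784 (limma), and it missed the call because its fold change was just under 1.5. With no fold threshold it would have been called, and after quantile normalization of the deposited values it was called at -0.64 (SE 0.11, adjusted p = 0.0829). Without mutant array 3 it was also called, at -0.64 (SE 0.09, adjusted p = 0.0284 in limma's fit), and with each array centred on its median it was -0.47 (SE 0.09) and not called. On 173137_s_at the signal was 12.78, 13.29 and 12.50 in *lin-54(n2990)* embryos and 12.48, 12.81 and 12.58 in wild-type embryos (0.24, SE 0.21, 95% confidence interval -0.28 to 0.76). The third, 189382_s_at, read 13.03, 13.43 and 12.82 in *lin-54(n2990)* embryos and 12.80, 12.97 and 12.87 in wild-type embryos (0.22, SE 0.17, 95% confidence interval -0.19 to 0.62). Both overlapped between genotypes and ranked the arrays of each genotype in the same order. The signal of 173137_s_at minus that of 174903_at was 0.91, 1.55 and 0.48 on the mutant arrays and 0.02, 0.35 and 0.17 on the wild-type arrays. The shift was 0.80 with no overlap (exact permutation p = 0.1, the smallest possible). Other embryo pairs of probe sets reached the same p in this test, such as *par-2* 172125_x_at and 175620_at, with a shift of only 0.06. The average over the 3 *par-5* probe sets differed by -0.04 (SE 0.12). By the array maker's suffixes, the "_s_at" and "_x_at" probe sets may also read related transcripts. *C. elegans* has a second 14-3-3 gene, *ftt-2*, and which transcripts each probe set reads was not tested.

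The mutant embryo arrays lay in the same order in the marker lists and in many of the polarity probe sets. Mutant array 2 had the highest germ line and maternal marker means and the lowest late-embryo marker mean of the 6 embryo arrays, and it was also the highest of the 3 mutant arrays for 12 of the 15 polarity probe sets detected in embryos. The wild-type arrays shared part of this order: replicate 2 was the highest array of both genotypes for 8 of the 15. Wild-type array 2 also had the highest germ line and maternal means and the lowest late-embryo mean of the wild-type arrays. Mutant array 3 had the mutant marker means nearest to the wild-type ones, and was the lowest mutant array for 9 of these 15. These counts hold several probe sets of the same gene. The share over all probe sets is not given here, so the order describes the arrays and is not a trait of the polarity genes. The list of maternal and eggshell RNAs that are lost in early embryos had mean signals of 10.22, 10.78 and 9.36 on the *lin-54(n2990)* arrays and 8.90, 9.70 and 8.999 on the wild-type arrays. Of that list 1 of 11 genes was called higher in the mutant (*cpg-2*), and of the germ line list 1 of 6 (*glh-1*). Over all genes 5.52% were called in either direction. The study names both genes among germline genes that it reads as repressed by LIN-54 in the embryo soma. Such a rise and a difference in stage or cell content cannot be told apart here. The late muscle, gut and neuron list had 0 of 13 called, with 14 of 24 probe sets wholly below wild-type, beside 17.6% of all probe sets. Summed over each list and put on the log2 scale, germ line marker signal ran from 12.66 to 13.72 in *lin-54(n2990)* embryos and from 11.96 to 12.63 in wild-type embryos. Maternal marker signal ran from 13.71 to 15.27 in *lin-54(n2990)* embryos and from 13.35 to 14.17 in wild-type embryos. Late marker signal ran from 13.04 to 13.94 in *lin-54(n2990)* embryos and from 14.25 to 14.43 in wild-type embryos. Sperm markers and yolk protein markers were at 0 of 18 present calls in each embryo group, and gonad sheath markers at 3 of 15. The part of the marker shifts in the *par-1*, *par-2*, *par-4* and *par-5* values was not tested. Leaving out both arrays numbered 2, the embryo changes were -0.34 (SE 0.17) and -0.49 (SE 0.11) for *par-1*, 0.34 (SE 0.16) for *par-4* 193402_at and -0.49 (SE 0.10) for *par-5* 174903_at, and 0 of the 8 genes were called.

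**Figure D3:**
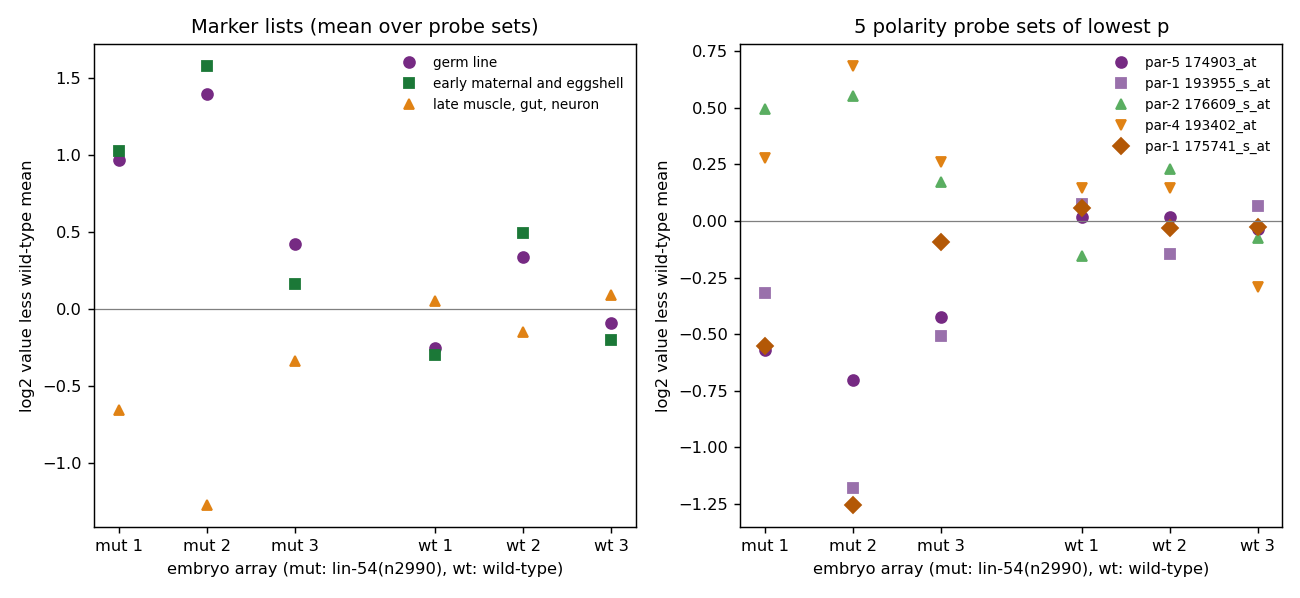
Log2 value less the wild-type mean on each of the 6 embryo arrays, for 3 marker lists (left) and 5 polarity probe sets with the lowest unadjusted p in embryos (right). On the mutant arrays, array 2 lies farthest from 0 and array 3 nearest in the marker lists, array 2 lies farthest for all 5 polarity probe sets, and array 3 lies nearest for all but *par-1* 193955_s_at.

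Detection calls showed where the genes could be measured at all. By the score used in the study (present 1, marginal 0, absent -1, summed over 3 arrays and averaged over a gene's probe sets, expressed above 1.5), 6 of 8 polarity genes were expressed in *lin-54(n2990)* embryos and 5 of 8 in wild-type embryos. In *lin-54(n3423)* germlines the score passed for 4 of 8, and in wild-type germlines for 5 of 8. The average over probe sets counts undetected probe sets against a gene: when the best probe set stood for the gene, the counts were 8 and 8 in *lin-54(n2990)* and wild-type embryos, and 7 and 8 in *lin-54(n3423)* and wild-type germlines. *par-3*, *par-5*, *pkc-3* and *cdc-42* passed in all 4 groups under either reading. *par-1* and *par-4* failed the averaged score in all 4 groups, *par-4* because of its 2 undetected probe sets. *par-2* passed it only in *lin-54(n2990)* embryos, with a score of 2.33 there and 0.667 in wild-type embryos, and *par-6* failed it only in *lin-54(n3423)* germlines, with 0 there and 2 in wild-type germlines. The gene not detected by its best probe set was *par-1* in *lin-54(n3423)* germlines. Of the calls on the 19 probe sets, 48 of 57 were present in *lin-54(n2990)* embryos (84.2%) and 44 of 57 in wild-type embryos (77.2%), while 53.0% and 55.05% of all calls were present in those groups. In *lin-54(n3423)* germlines 37 of 57 were present (64.9%) and in wild-type germlines 43 of 57 (75.4%), while 32.7% and 34.4% of all calls were present in those groups.

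**Figure D4:**
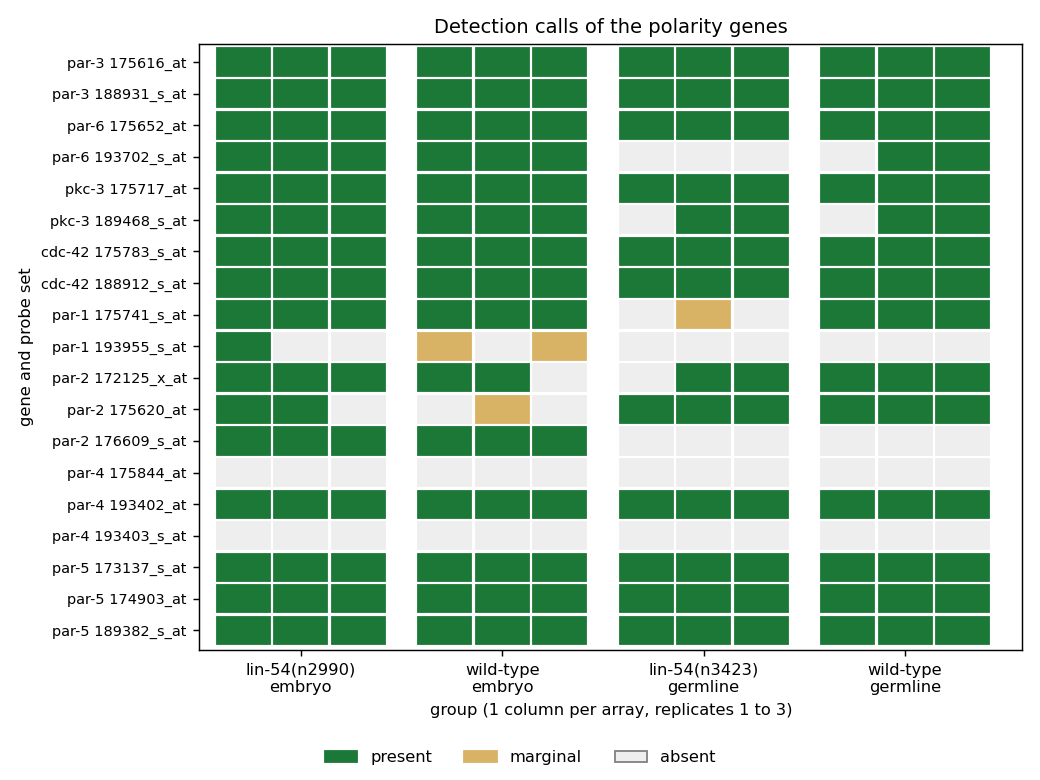
Detection call of each polarity probe set (rows) on each array (columns), with the mutant left of wild-type in each tissue. Green is present, tan marginal and pale grey absent. *par-4* 175844_at and 193403_s_at are absent on all 12 arrays, and *par-1* 175741_s_at is present on all 3 wild-type germline arrays and on none of the *lin-54(n3423)* ones.

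In dissected germlines, which make the mRNA that the zygote inherits, the genotypes overlapped on all 19 probe sets. *par-3* 175616_at read 8.21, 9.34 and 9.45 in *lin-54(n3423)* germlines and 8.56, 9.12 and 9.06 in wild-type germlines (0.09, SE 0.37). The first array of each genotype was the lowest, as it was on the second *par-3* probe set, 188931_s_at (0.20, SE 0.52, 95% confidence interval -1.09 to 1.498). Of the 14 polarity probe sets detected in germlines, array 1 was the lowest array of both genotypes for 11. For this order too, the share over all probe sets is not given. *par-6* 175652_at had the largest germline change of the 19. Its signal was 8.16, 8.65 and 8.85 in *lin-54(n3423)* germlines and 8.73, 9.21 and 9.10 in wild-type germlines. Each mutant array lay below the wild-type array of the same number, while over all arrays the groups overlapped. The change was -0.46 (SE 0.23, 95% confidence interval -1.02 to 0.10), with an unadjusted p of 0.0925 (limma, adjusted 1.00). That fit did not pair the arrays by number. With replicate number as a block, the lowest p among the 19 germline probe sets was 0.0108 (limma, lowest adjusted p 0.510). With arrays numbered 1 as a batch it was 0.0037 (limma, lowest adjusted p 0.235), and neither fit called a polarity gene. On 193702_s_at, *par-6* was absent on 3 of 3 *lin-54(n3423)* arrays and present on 2 of 3 wild-type ones, with a change of -0.13 (SE 0.57, 95% confidence interval -1.54 to 1.29). *pkc-3* 175717_at read 8.96, 10.07 and 10.12 in *lin-54(n3423)* germlines and 9.20, 9.89 and 10.13 in wild-type germlines (-0.03, SE 0.40). The change on 189468_s_at was -0.04 (SE 0.43). *cdc-42* 175783_s_at read 10.06, 9.47 and 9.71 in *lin-54(n3423)* germlines and 9.70, 9.72 and 9.90 in wild-type germlines (-0.02, SE 0.17, 95% confidence interval -0.46 to 0.41), and here, unlike the other anterior genes, mutant array 1 was the highest. On 188912_s_at *cdc-42* differed by 0.00 (SE 0.21).

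*par-1* stood near the detection limit in germlines. On 175741_s_at it read 7.93, 7.90 and 7.85 in *lin-54(n3423)* germlines and 8.09, 7.88 and 7.71 in wild-type germlines, a change of 0.00 on the log2 scale (SE 0.12). The calls were nonetheless 0 of 3 present in the mutant, with 1 marginal, and 3 of 3 present in wild-type. The signals thus overlapped while the calls differed. The other *par-1* probe set, 193955_s_at, was absent on all 6 germline arrays, as was *par-2* 176609_s_at. *par-2* 175620_at, detected on all 6, read 7.63, 8.31 and 8.80 in *lin-54(n3423)* germlines and 8.07, 8.53 and 8.57 in wild-type germlines (-0.14, SE 0.33, 95% confidence interval -0.95 to 0.67). On 172125_x_at *par-2* differed by -0.05 (SE 0.23). *par-4* 193402_at read 7.96, 9.30 and 9.78 in *lin-54(n3423)* germlines and 8.50, 9.39 and 9.30 in wild-type germlines (-0.05, SE 0.52, 95% confidence interval -1.35 to 1.24), the mutant arrays lying on both sides of the wild-type ones. *par-5* 174903_at, the probe set that was lower in mutant embryos, read 11.32, 11.49 and 11.89 in *lin-54(n3423)* germlines and 11.22, 11.49 and 11.29 in wild-type germlines (0.23, SE 0.18, 95% confidence interval -0.21 to 0.68). The other *par-5* probe sets differed by -0.05 (SE 0.32) for 173137_s_at and 0.10 (SE 0.31) for 189382_s_at.

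**Figure D5:**
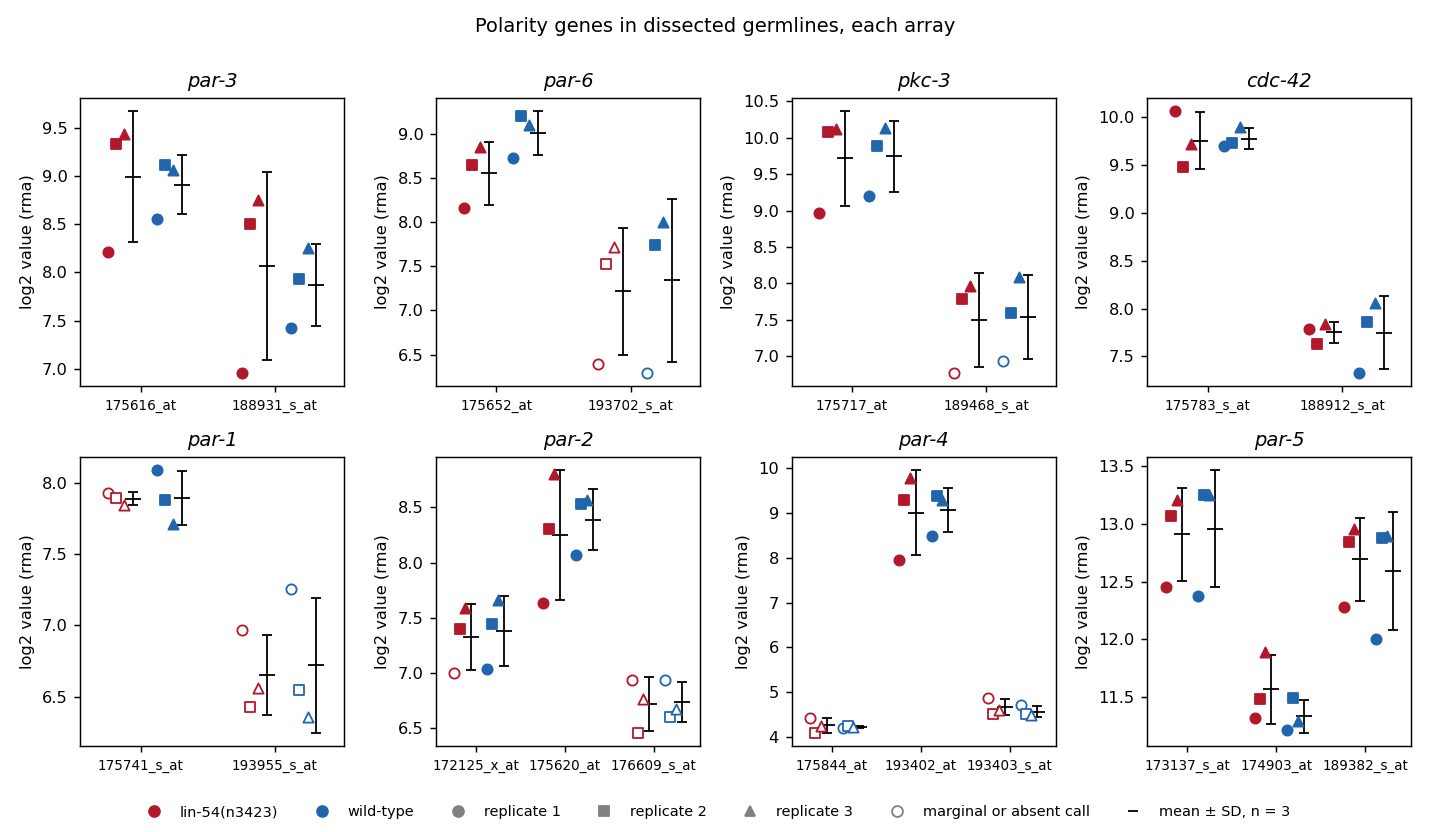
Log2 signal of the 19 polarity probe sets on each germline array, 1 panel per gene, with *lin-54(n3423)* left of wild-type on each probe set. Marker shapes are replicate numbers, open markers are marginal or absent calls, and bars are mean ± SD (n = 3). The groups overlap on every probe set, and replicate 1 (circles) is the lowest array of both genotypes on 11 of the 14 detected probe sets.

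The germline spread was smaller once the arrays numbered 1 were set aside. The median SE of the 19 probe sets was 0.28 over all germline arrays, 0.12 without both arrays numbered 1, and 0.11 with replicate number as a block. Without these arrays the change of *par-3* was 0.30 (SE 0.09) on 175616_at and 0.54 (SE 0.16) on 188931_s_at, and that of *par-6* 175652_at was -0.40 (SE 0.11). None of the 3 was called, and the lowest adjusted p was 0.343 (limma). The germline arrays also differed in the yolk protein genes *vit-2*, *vit-3*, *vit-5* and *vit-6*. Their mean signals were 8.90, 12.45 and 8.60 on the *lin-54(n3423)* arrays and 9.19, 10.71 and 12.16 on the wild-type arrays. Their summed signal ran from 11.72 to 15.44 in *lin-54(n3423)* germlines and from 12.67 to 15.28 in wild-type germlines, and 17 and 18 of 18 calls were present. Sperm markers were at 0 of 18 present calls in each germline group, late embryo markers at 15 of 72 in *lin-54(n3423)* and 19 of 72 in wild-type germlines, and germ line markers at 27 of 30 in *lin-54(n3423)* and 25 of 30 in wild-type germlines. Of 4 gonad sheath markers, *inx-8*, a gap junction subunit of the sheath, was called lower in the mutant (-2.67, SE 0.21, adjusted p = 0.214 in limma's fit), beside 0.504% of all genes called in germlines. The other sheath markers overlapped between genotypes: 0.08 for *lim-7*, 0.08 and 0.03 for *ceh-18* and 0.03 for *inx-9*. *lim-7* and both *ceh-18* probe sets were absent on every germline array of both genotypes. *inx-9* was present on 1 wild-type array and otherwise absent or marginal. A fall of these markers could thus not have been seen. The summed sheath signal, which includes *inx-8*, ran from 8.58 to 8.97 in *lin-54(n3423)* germlines and from 10.02 to 10.36 in wild-type germlines. The maternal marker list had means of 9.27, 11.32 and 11.28 on the *lin-54(n3423)* arrays and 9.52, 11.41 and 11.67 on the wild-type arrays, lowest on array 1 in both genotypes as for most of the polarity probe sets. The part of these marker differences in the germline values was not tested.

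Whether the mutant change differed between embryos and germlines was tested as an interaction over the 12 arrays, embryo change minus germline change. Of the 8 genes 1 passed the call (3.43% of all genes did), *par-5* on 174903_at, with an embryo change of -0.56 and a germline change of 0.23. The difference was -0.80 (SE 0.21, 95% confidence interval -1.26 to -0.34), with an unadjusted p of 0.00324 and an adjusted p of 0.242 (limma). Over all 400 regroupings of the genotypes within the tissues the exact permutation p was 0.015. That test takes genotype to have no effect in either tissue, so it does not test whether the change was equal in both. With each array centred on its median the difference was -0.69 and not called, and without *lin-54(n2990)* array 3 *par-1* passed as well. For *par-1* the differences were -0.63 (SE 0.33) and -0.60 (SE 0.39), and for *par-6* 175652_at 0.54 (SE 0.29). These missed the call, as did the 3 *par-2* probe sets, with differences from 0.42 to 0.48.

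The wider polarity machinery held 2 called genes in embryos and none in germlines. The list held 55 genes, 54 of them on the array with 110 probe sets, in 6 groups. In embryos 2 of 54 genes were called, 1 in each direction, beside 5.52% of all genes, and in germlines 0 of 54, beside 0.504% of all genes. Without *lin-54(n2990)* array 3 the number of genes called in embryos was 11, without *lin-54(n2990)* array 1 or 2 or wild-type array 1 it was 1, and without wild-type array 2 or 3 it was 0. The number called in germlines was 2 without *lin-54(n3423)* array 1, 1 without *lin-54(n3423)* array 2 and 5 without both arrays numbered 1. The share of all genes called in these refits is not given here, so these counts cannot be set beside 5.52% and 0.504%. With no fold threshold, at an unadjusted p of at most 0.05 in limma's test, 28 of the 110 probe sets passed in embryos, where 25.4% of all probe sets did, and 2 of 110 in germlines, where 2.5% did, so both counts were near the share over all probe sets. *gpr-1*, a GoLoco protein that links cortical G protein to spindle pulling forces, read 10.20, 10.65 and 10.37 in *lin-54(n2990)* embryos and 9.92, 9.74 and 9.76 in wild-type embryos. It rose by 0.60 (SE 0.13, adjusted p = 0.105 in limma's fit). It is a close paralog of *gpr-2*, whose probe set differed by 0.45 (SE 0.10), and how far each probe set reads the other transcript was not tested. *ftt-2*, the 14-3-3 paralog of *par-5*, read 11.85, 11.62 and 12.25 on 171773_x_at in *lin-54(n2990)* embryos and 12.60, 12.58 and 12.54 in wild-type embryos. It fell by 0.67 (SE 0.16, adjusted p = 0.113 in limma's fit), and its other probe sets differed by -0.51 and -0.49. In embryos the 3 *ftt-2* probe sets and *par-5* 174903_at all lay wholly below wild-type, with mutant array 2 lowest and array 3 highest of the mutant arrays. In germlines they parted: the *ftt-2* probe sets differed by -0.79, -0.41 and -0.44, none called, while *par-5* 174903_at was at 0.23.

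By role, the 5 genes of the centrosome cue and mitotic kinases had a median embryo change of 0.49 (8 probe sets) and the 8 cytoplasmic targets of the PAR proteins, such as the RNA-binding MEX-5, MEX-6 and POS-1, a median of 0.54 (15 probe sets), beside 0.0038 for all probe sets. None of these 13 genes was called. One of them, *mex-6* on 175381_at, was picked after its values were seen, so its array order is a description only and bears on no other gene. It read 10.07, 10.66 and 9.68 in *lin-54(n2990)* embryos and 9.23, 9.68 and 9.34 in wild-type embryos, the order of the maternal markers within each genotype. The 8 epithelial apical and junction genes, which are made as embryos form epithelia, had a median of -0.24, with 8 of 23 probe sets wholly below wild-type and none called. The 11 partners of the PAR and PKC-3 proteins had a median of -0.09 in embryos, and the 8 spindle positioning genes 0.20. Over the whole list 7 of 110 probe sets lay wholly above wild-type and 25 wholly below in embryos, beside 15.2% and 17.6% of all probe sets. In germlines the cytoplasmic targets had a median of -0.32, beside 0.02 for all probe sets, and none was called.

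For each polarity gene the single most similar profile outside the 8 genes was taken, by Pearson's r over the 12 arrays after each tissue was centred on its own mean. The 12 arrays share the replicate differences described above, and r is given as a description. The nearest genes were *oac-46* for *par-1* (r = 0.990), Y39G10AR.7 for *par-2* (0.985), *clp-1* for *par-3* (0.987), ZK370.4 for *par-4* (0.989), F56C9.6 for *par-5* (0.988), *drp-1* for *par-6* (0.969), Y54E10BR.1 for *pkc-3* (0.987) and *clec-232* for *cdc-42* (0.921).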

How the data were processed

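The series holds 12 Affymetrix arrays, 3 for each of 4 groups. The authors summarized the probe signals with rma (affy package) into 1 deposited log2 value per probe set and array, normalized within a tissue and never across tissues, with gene names from WormBase WS190. Other deposited columns hold the Affymetrix detection calls, which were used, and the authors' fold changes and p-values, which were not. The number of arrays limits the precision.

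limma 3.58.1 (lmFit, eBayes) in R 4.3.3 compared mutant with wild-type arrays in each tissue separately, with Benjamini-Hochberg adjustment over all 21541 probe sets. A gene counted as called if any of its probe sets passed. The fits were tested on simulated data. Alternatives changed the threshold, filter, scaling, variance model and arrays. All 8 genes were named with all of their probe sets, and of the wider list the called genes. Uncalled genes of that list were named only as a paralog (*gpr-2*) or as examples of a group, *mex-6* after its values were seen. Of the 6 groups of the list, 1 is not reported by itself here. The members and lists were chosen with earlier results of these data known. Same-numbered arrays of the 2 genotypes deviated together (correlations 0.25, 0.36 and 0.28 in embryos and 0.83, 0.36 and 0.39 in germlines), so replicate numbers were treated as pairs in an alternative fit. No sequence of the genes or probes was used here.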

Additional observations from a re-analysis of the deposited data

Results flagged for a closer look

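The mutant change of *par-5* on probe set 174903_at differed between the tissues (embryo minus germline -0.799, SE 0.208, limma unadjusted p = 0.00324, adjusted p = 0.242), with -0.56 in *lin-54(n2990)* embryos and 0.23 in *lin-54(n3423)* germlines. The other *par-5* probe sets had differences of 0.28 (SE 0.41) and 0.12 (SE 0.38). Allele, temperature and labelling differ along with tissue and cannot be told apart from it.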

How the results depend on the processing

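With 3 arrays a group, single changes below about 1 SE had no settled sign, and a p that missed the threshold does not show that values were equal. Members called in embryos were 0, and 1 with replicate number as a block (*par-1*), 1 with no fold threshold (*par-5*) and 1 with quantile normalization (*par-5*), and 0 to 2 when each array was left out in turn, the 2 (*par-1* and *par-5*) without *lin-54(n2990)* array 3. In germlines 0 members were called under every alternative run. Replicate number as a block changed no other call of a member. Genes called on the wider polarity list were 2 in embryos, and 1 with arrays numbered 1 as a batch, 0 at an adjusted p of 0.05, 6 with no fold threshold, 1 with median centring, 1 with quantile normalization, 7 with array weights, 1 with probe sets averaged, and 0 to 11 with each array left out, the 11 without *lin-54(n2990)* array 3. In germlines the list had 0, and 1 with the replicate block, 3 with arrays numbered 1 as a batch, 1 with array weights, 5 without both arrays numbered 1 (chosen after seeing the data, as was leaving out both numbered 2), and 0 to 2 with each array left out. The share of all genes called under each alternative is not given here, so these member and list counts have no background to be read against. Members whose change differed between tissues were 1, and 0 at an adjusted p of 0.05, 0 with median centring, and 1 to 2 with each array left out. By the permutation of genotype within tissues, which does not test for an equal change, 0 passed at 0.01. Members detected under either other detection rule were 8 in *lin-54(n2990)* embryos, 8 in wild-type embryos, 7 in *lin-54(n3423)* germlines and 8 in wild-type germlines, where the averaged score gave 6, 5, 4 and 5. Median centring moved the embryo median of all probe sets to 0.10. The changes in sign listed next were on 9 embryo and 17 germline probe sets of 19 each, none called and each under 1 SE over all arrays, and the cause was not tested. The filters and the average over probe sets gave no value per probe set where they drop or merge it. In embryos, with each array centred on its median, the changes that altered sign were 0.055 for *pkc-3* 175717_at, 0.033 for *cdc-42* 175783_s_at, 0.078 for *par-4* 175844_at, 0.071 for *cdc-42* 188912_s_at and 0.074 for *par-3* 188931_s_at. In embryos, with quantile normalization, the changes that altered sign were -0.058 for *par-3* 175616_at. In embryos, with array weights, the changes that altered sign were -0.12 for *par-3* 175616_at, -0.018 for *par-6* 175652_at, 0.0067 for *cdc-42* 188912_s_at and 0.013 for *par-3* 188931_s_at. In embryos, without both arrays numbered 2, the changes that altered sign were -0.075 for *par-3* 175616_at and -0.049 for *par-4* 193403_s_at. Leaving out each array in turn, the embryo changes that altered sign ran from -0.073 to 0.057 for *cdc-42* 188912_s_at, -0.040 to 0.11 for *par-3* 175616_at, -0.084 to 0.078 for *par-3* 188931_s_at, -0.076 to 0.019 for *par-4* 175844_at, -0.049 to 0.094 for *par-4* 193403_s_at, -0.034 to 0.18 for *par-6* 175652_at, -0.17 to 0.077 for *pkc-3* 175717_at and -0.027 to 0.33 for *pkc-3* 189468_s_at. In germlines, with each array centred on its median, the changes that altered sign were -0.0030 for *cdc-42* 188912_s_at. In germlines, with quantile normalization, the changes that altered sign were 0.020 for *par-5* 173137_s_at, 0.028 for *pkc-3* 175717_at and 0.0071 for *par-1* 175741_s_at. In germlines, with array weights, the changes that altered sign were 0.079 for *pkc-3* 175717_at, 0.044 for *par-1* 175741_s_at, -0.057 for *par-4* 175844_at, -0.18 for *cdc-42* 188912_s_at, 0.060 for *pkc-3* 189468_s_at, 0.11 for *par-4* 193402_at and 0.0065 for *par-1* 193955_s_at. In germlines, without both arrays numbered 1, the changes that altered sign were 0.0077 for *par-2* 175620_at, 0.080 for *pkc-3* 175717_at, 0.072 for *par-1* 175741_s_at, -0.062 for *par-4* 175844_at, -0.23 for *cdc-42* 188912_s_at, 0.031 for *pkc-3* 189468_s_at, 0.19 for *par-4* 193402_at and 0.043 for *par-1* 193955_s_at. Leaving out each array in turn, the germline changes that altered sign ran from -0.18 to 0.12 for *cdc-42* 175783_s_at, -0.21 to 0.16 for *cdc-42* 188912_s_at, -0.095 to 0.092 for *par-1* 175741_s_at, -0.25 to 0.20 for *par-1* 193955_s_at, -0.22 to 0.11 for *par-2* 172125_x_at, -0.42 to 0.17 for *par-2* 175620_at, -0.13 to 0.11 for *par-2* 176609_s_at, -0.14 to 0.48 for *par-3* 175616_at, -0.14 to 0.76 for *par-3* 188931_s_at, -0.051 to 0.12 for *par-4* 175844_at, -0.43 to 0.48 for *par-4* 193402_at, -0.0057 to 0.17 for *par-4* 193403_s_at, -0.34 to 0.18 for *par-5* 173137_s_at, -0.19 to 0.31 for *par-5* 189382_s_at, -0.65 to 0.28 for *par-6* 193702_s_at, -0.30 to 0.35 for *pkc-3* 175717_at and -0.34 to 0.33 for *pkc-3* 189468_s_at.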
